A study of Mus musculus with 6 samples.

Results

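The miR-23/27/24 clusters are represented here by miR-23a, miR-24 and miR-27b (mmu-miR-23a, mmu-miR-24 and mmu-miR-27b on the array), which were chosen by name, as the guide-strand assays of these families that hold values. They are 3 of the 709 miRNA assays of a real-time PCR array and 3 of the 95 assays with a value in every sample. The array was run on osteoclasts, myeloid cells that resorb bone, sorted magnetically from mouse bone marrow cells as OSCAR+CTR+. There were 3 samples from OCmiR-Intact mice (intact), the controls, and 3 from OCmiR-KD mice (knockdown), in which osteoclast miRNAs were knocked down. The sources used here do not give how the knockdown was made, the cells in which it acts, or the strain, age and sex of the mice. The design text says that equal RNA of 3 mice per group was pooled, while each group has 3 samples. The samples may thus be technical repeats, and p-values cover no more than their spread.

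MicroRNAs are short RNAs that pair through their seed, bases 2 to 8, with messenger RNAs and repress them. In mammals miR-23, miR-27 and miR-24 are cut from shared primary transcripts of a pair of clusters, miR-23a/27a/24-2 and miR-23b/27b/24-1. The miR-23a cluster is a target of PU.1, a transcription factor that myeloid cells and osteoclasts need. In bone, miR-23a is known as a repressor of Runx2, the master regulator of osteoblasts, and miR-27 as a repressor of the fat cell regulator PPARγ.

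The mature sequences of the families' 5 guide-strand assays are shown as deposited, 5′ to 3′, with the seed in capitals, because they show which assays share a seed and how few bases part the measured from the unmeasured ones.
miR-23a: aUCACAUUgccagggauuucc
miR-23b: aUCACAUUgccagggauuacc
miR-27a: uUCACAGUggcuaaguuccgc
miR-27b: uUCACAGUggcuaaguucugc
miR-24: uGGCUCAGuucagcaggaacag
The sequences of miR-23a and miR-23b differ only by U19A and those of miR-27b and miR-27a only by U19C, counted from the 5′ end with the base of the first-named miRNA first. Within each pair the seed is the same. All 3 measured members matched a mature sequence of RefSeq (build GRCm38.p6). The sequence of miR-23a lies at chr8:84208563-84208583 on the plus strand, in the hairpin Mir23a, and that of miR-27b at chr13:63300760-63300780 on the plus strand, in Mir27b. The sequence of miR-24 occurs in both clusters, at chr8:84208875-84208896 in Mir24-2 and at chr13:63301251-63301272 in Mir24-1, so the assay cannot tell the loci apart. The hairpins of the chromosome 8 cluster span 404 bases and none is contained in another listed gene. Those of the chromosome 13 cluster span 792 bases within the bounds of Aopep, and Mir24-1 also lies within Mir3074-1. Whether they are exonic or intronic was not analysed here.

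Of the 9 assays of these families on the array, 3 held values in all 6 samples and 6 were Null in all 6. The Null assays were the guide strands miR-23b and miR-27a and the star strands miR-24-1*, miR-24-2*, miR-27a* and miR-27b*. They were Null in the table of threshold cycles as well as in the normalized table. Each measured member of the miR-23 and miR-27 pairs thus has a paralog, 1 base away, with no value in any sample. The sources used here do not give the rule by which a well became Null, so a Null is no measured absence. Whether the miR-23a and miR-27b assays also read their paralogs was not tested. The measured members come from different loci, miR-23a from chromosome 8 and miR-27b from chromosome 13, and neither locus has all of its guide strands measured.

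The deposited Ct (threshold cycle) counts the PCR cycles needed to reach a fluorescence threshold, and a Ct lower by 1 corresponds to roughly 2 times the template. The level used below is minus delta Ct, the log2 amount relative to U6, a small nuclear RNA, on the same plate. All 3 members were on plate 1. The Ct of U6 there averaged 29.7 ± 0.547 cycles over the intact and 30.3 ± 0.906 cycles over the knockdown samples (SD, n = 3 each). A limit touches each difference below. Turned to linear amounts per U6 of plate 1, the 3 knockdown values of a miRNA averaged 1 to within 0.001 in 88 of the 95 assays (92.6%), the 3 members included, and in 0 of 95 in intact samples. Such values cannot be plain readings, and the sources used here do not name the step that set them. The word "fell" below says that deposited intact values lie above a fixed knockdown mean, which by itself shows no loss of a miRNA.

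The level of miR-23a, the Runx2 repressor, was 6.28, 5.61 and 5.89 in intact samples 1 to 3 and -0.73, -0.65 and 0.82 in knockdown samples 1 to 3. All intact samples lay near 6 and all knockdown samples within 1 log2 unit of U6, with a gap of 4.79 between the groups. The Ct values behind these were 23.01, 23.96 and 24.46 cycles in intact and 31.9, 31.2 and 28.5 cycles in knockdown osteoclasts. The mean level went from 5.92 ± 0.33 in intact to -0.19 ± 0.87 in knockdown osteoclasts (SD, n = 3 each). The difference of -6.11 log2 units (SE 0.59, 95% interval -7.49 to -4.74) passed the threshold (limma, adjusted p = 3.93e-05 over 95 assays). It stands 22nd of 95 by size of the fall. In the authors' deposited table the fold of intact over knockdown was 69.2.

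miR-24, the member encoded in both clusters, had levels of 4.97, 5.18 and 4.63 in intact samples 1 to 3 and of -0.23, -0.20 and 0.35 in knockdown samples 1 to 3. It was the tightest of the 3 members in both groups, and the groups lay 4.28 apart at their nearest samples. Its Ct values were 24.3, 24.4 and 25.7 cycles in intact and 31.3, 30.8 and 29.0 cycles in knockdown samples. The mean level went from 4.93 ± 0.28 to -0.03 ± 0.33 (SD, n = 3 each), a difference of -4.95 log2 units (SE 0.48, 95% interval -6.06 to -3.84, limma adjusted p = 3.93e-05). The authors' deposited table gives a fold of 31.0.

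These values of miR-24 cannot be counted as its own without reserve. The assay of miR-199a-3p, a miRNA clustered with miR-214 that is known from stromal cells, holds the same Ct in each of the 6 samples, to the last digit given, and the same deposited fold of 31.0. Both wells are on plate 1, miR-24 in row B and miR-199a-3p in row F. The sequences are shown together because their values are the same.
miR-24: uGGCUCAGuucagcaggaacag
miR-199a-3p: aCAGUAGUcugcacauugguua
They are 14 single-base edits apart and have different seeds, and the cause of the repeat was not tested. No other assay repeated the 6 values of a member. The sources used here do not say which of the assays gave the reading. Where the repeated values are not credited to miR-24, the clusters are left with miR-23a and miR-27b as measured members.

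miR-27b, of the family known to repress PPARγ, had levels of 4.75, 2.03 and 5.04 in intact samples 1 to 3 and of -0.38, -1.40 and 0.89 in knockdown samples 1 to 3. Intact sample 2 lay well below the other intact samples, with a Ct of 27.5 cycles against 24.5 and 25.3. The knockdown Ct values were 31.50, 31.96 and 28.46 cycles. The groups still did not overlap, but the gap was only 1.14 log2 units. Its mean was 3.94 ± 1.66 over the intact and -0.30 ± 1.15 over the knockdown samples (SD, n = 3 each). The difference of -4.24 log2 units (SE 0.95, 95% interval -6.46 to -2.01) passed the threshold (limma, adjusted p = 0.00362). Of the 95 assays, 3 had a larger intact SD, beside a median intact SD of 0.48. The authors' deposited table gives a fold of 18.8. Without intact sample 2 the difference was -5.19, and without knockdown sample 3 it was -4.83, each more than 1.5 times larger as a fold. It was smaller without intact sample 1 (-3.83), intact sample 3 (-3.69), knockdown sample 1 (-4.19) or knockdown sample 2 (-3.68). The fall passed in each case.

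**Figure D1:**
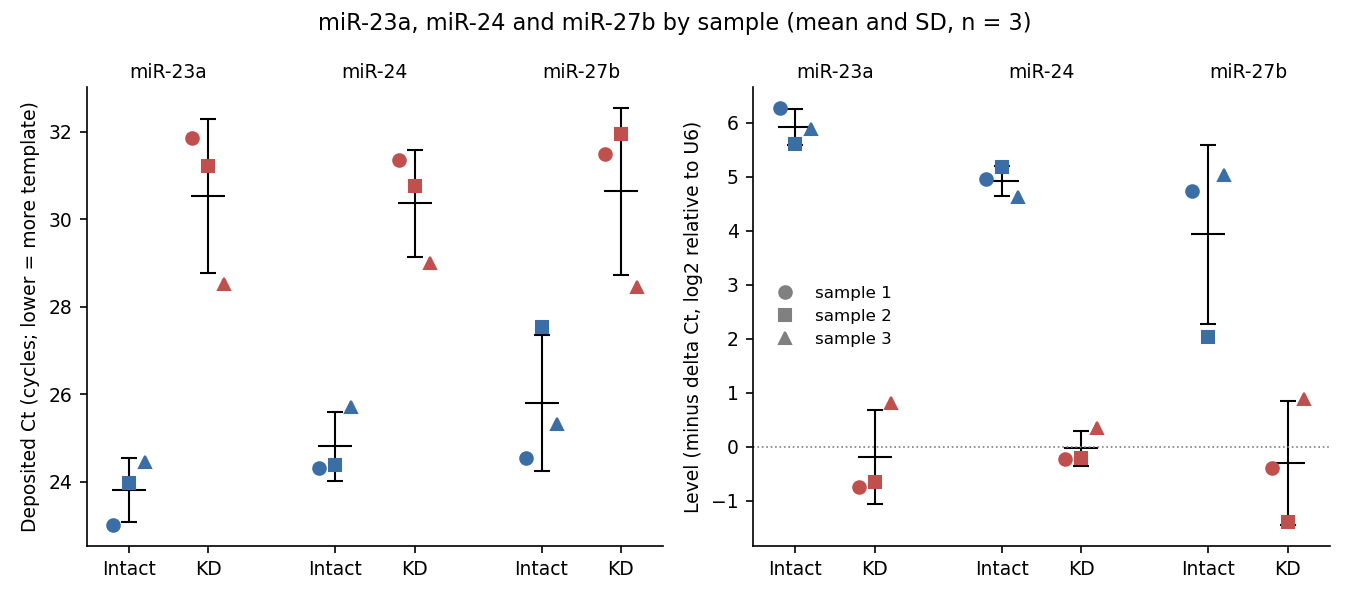
Deposited Ct in cycles (left) and level in log2 units relative to U6 (right) of miR-23a, miR-24 and miR-27b, with each of the 3 intact (blue) and 3 knockdown (red) samples as a point and the mean and SD as black lines. The groups do not overlap for any of the 3, and intact sample 2 of miR-27b lies at 2.03, below the other intact samples at 4.75 and 5.04.

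The order of the members was the same by intact level and by size of the fall: miR-23a, then miR-24, then miR-27b. With the linear knockdown means fixed at 1, each fall is mostly the intact level, so these orders are not independent. Primers also set the level an assay reads, so the order by level is one of readings, not of abundance. In intact samples miR-23a was above miR-24 in 3 of 3 samples, by 1.31, 0.43 and 1.26 log2 units. miR-24 was above miR-27b in intact samples 1 and 2 and below it in sample 3, by 0.22, 3.15 and -0.41. miR-24 and miR-27b therefore do not differ beyond their spread. In knockdown samples the order did not hold either: miR-27b was the highest of the 3 in sample 3 and the lowest in sample 2.

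On the linear scale the knockdown values of miR-23a were 0.601, 0.638 and 1.76, those of miR-24 were 0.852, 0.870 and 1.28, and those of miR-27b were 0.767, 0.379 and 1.85 times U6. Each trio averages 1.00. Knockdown sample 3 was the highest of the group for all 3 members, as it was for 40 of the 88 assays with this fixed mean. It also had the lowest U6 Ct of plate 1 among the knockdown samples, 29.3 cycles against 31.1 and 30.6. With the linear mean at 1, the mean of the logs lies at or below 0, and the further the values spread the lower it lies. It was -0.03 for the tight values of miR-24, -0.19 for miR-23a and -0.30 for miR-27b. The rest of each fall is the intact level, 5.92, 4.93 and 3.94. The intact values averaged 61.8, 30.8 and 21.3 times U6 on the linear scale. For miR-27b this ratio of linear means is above the deposited fold of 18.8, and for miR-23a it is below that of 69.2.

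**Figure D2:**
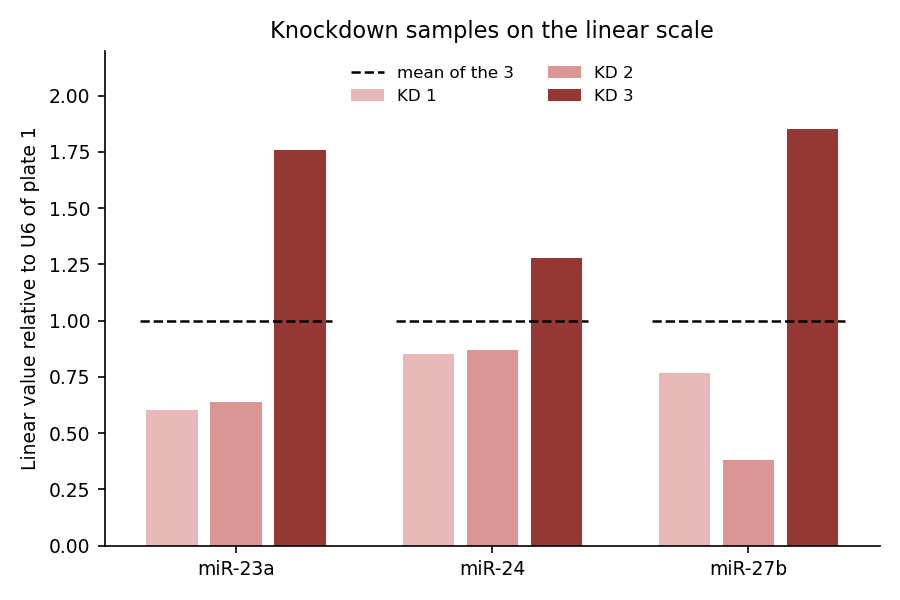
Linear value relative to U6 of plate 1 (vertical axis, no unit) in knockdown samples 1 to 3 for each miRNA, with a dashed line at the mean of the 3. The bars run from 0.379 to 1.85, knockdown sample 3 is the tallest for each miRNA, and all 3 means lie at 1.00.

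All 3 members fell relative to U6, as did 84.2% of the 95 assays (limma, lower at an adjusted p under 0.05), so their calls do not set them apart. Likewise the groups did not overlap, with knockdown below intact, for 3 of 3 members and for 82.1% of all assays. The median change of the members was -4.95, beside -4.54 over all assays tested, whose changes ran from -10.12 to 0.49. That median is the value of miR-24, which miR-199a-3p repeats, while miR-23a stood at -6.11 and miR-27b at -4.24. When each sample was centred on the mean Ct of the measured assays, which takes -4.48 log2 units off the changes of plate 1 assays, 0 of 3 members passed (limma, 1 of 3 at an unadjusted p under 0.05), against 40% of all assays in either direction. The difference was then -1.63 for miR-23a (95% interval -2.95 to -0.31, limma adjusted p = 0.0523) and -0.47 for miR-24 (95% interval -1.58 to 0.64, limma adjusted p = 0.48). For miR-27b it turned to 0.25 (95% interval -1.86 to 2.35, limma adjusted p = 0.878). After quantile normalization 0 of 3 passed as well (limma, 0 of 3 at an unadjusted p under 0.05), against 12.6% of all assays, with values of -1.31, -0.39 and -0.011. With no reference, on minus Ct, the differences were -6.72, -5.56 and -4.84 (limma adjusted p = 5.2e-06, 2.32e-05 and 0.0003). In that setting 84 of the 95 assays were lower. The falls were thus seen with and without U6, but they do not show a change beyond that of the measured miRNAs as a whole.

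**Figure D3:**
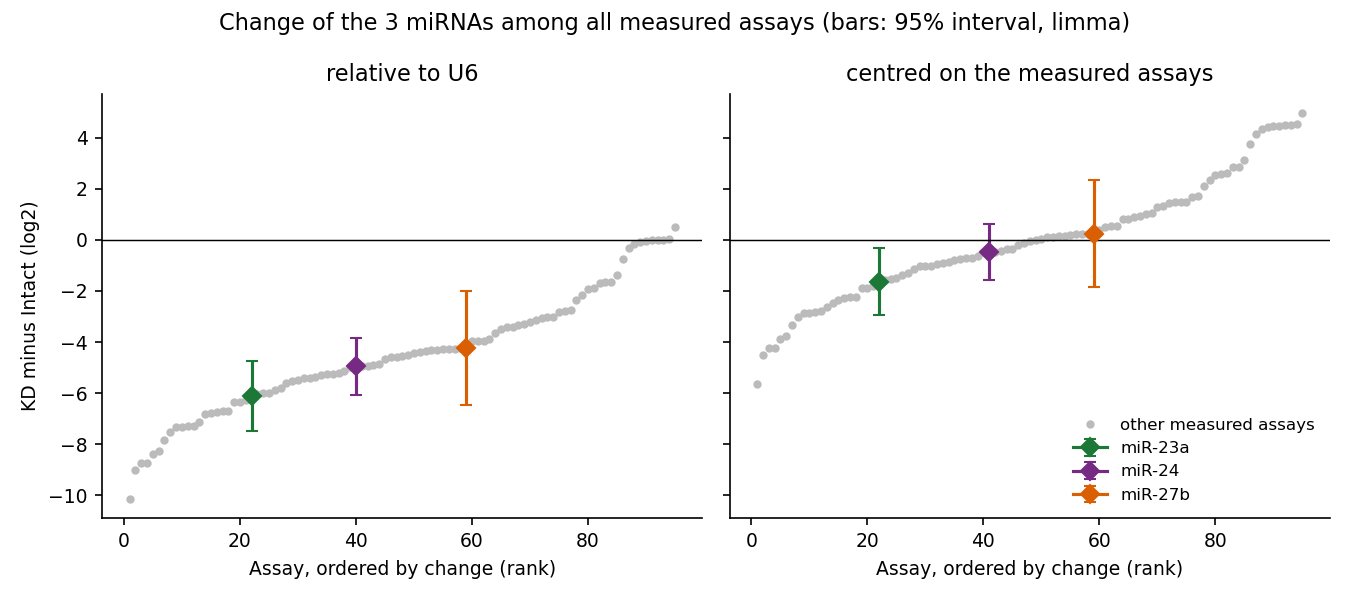
Change of each of the 95 measured assays, knockdown minus intact in log2 units, ordered by size, relative to U6 (left) and centred on the measured assays (right). The 3 miRNAs, with 95% intervals from limma, lie inside the run of the other assays, from -6.11 to -4.24 on the left and from -1.63 to 0.25 on the right.

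**Figure D4:**
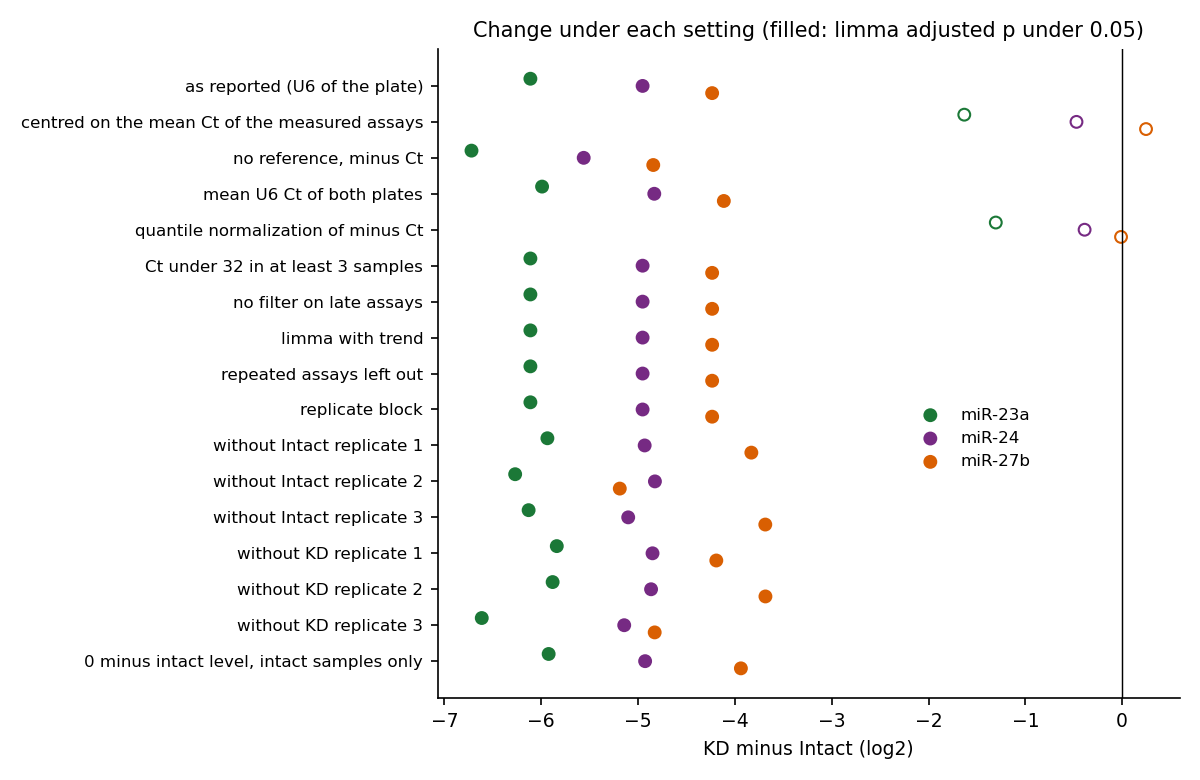
Change of each miRNA (horizontal axis, knockdown minus intact in log2 units) under each processing setting (vertical axis), with filled points where the limma adjusted p was under 0.05. Points are open only under centring and quantile normalization, where they lie between -1.63 and 0.25.

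Whether the members changed by unequal amounts was asked within samples, where a reference shared by both assays cancels. The level of miR-23a minus that of miR-27b was 1.53, 3.58 and 0.85 in intact samples 1 to 3 and -0.35, 0.75 and -0.07 in knockdown samples 1 to 3. The groups did not overlap, with the intact differences all higher, but knockdown sample 2 came close to intact sample 3. It averaged 1.99 ± 1.42 over the intact and 0.11 ± 0.57 over the knockdown samples (SD, n = 3 each), a change of -1.88 (two-sided exact permutation p = 0.1, which is the lowest possible with 3 against 3, adjusted p = 0.3 over the 3 pairs). Without intact sample 2 the change was -1.08. For miR-23a minus miR-24 the change was -1.16 (exact permutation p = 0.2, adjusted p = 0.3), and the groups overlapped. For miR-24 minus miR-27b it was -0.72 (exact permutation p = 0.6, adjusted p = 0.6), and without intact sample 2 it turned to 0.36. No pair passed, which a design of this size cannot do at a threshold of 0.05, and the fixed knockdown means limit these differences as well.

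**Figure D5:**
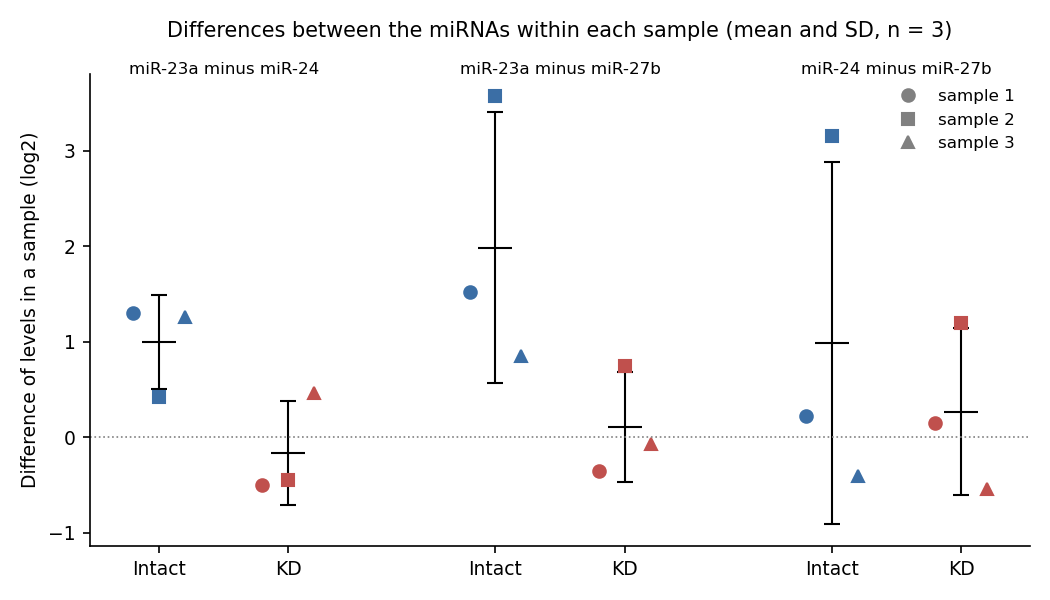
Difference of levels between the members of each pair within a sample (vertical axis, log2 units) in intact (blue) and knockdown (red) samples, with the mean and SD as black lines. Intact sample 2 is the highest point of both pairs that hold miR-27b, at 3.58 and 3.15.

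The changes of the 3 members spanned 1.88 log2 units. Of 11 other co-transcribed clusters looked at, 7 had at least 2 measured guide strands, and their changes spanned from 2.10 for miR-191 and miR-425 to 7.20 for miR-99a and let-7c. Among them is that of miR-199a-3p and miR-214, at 2.38, so the values shared with miR-24 stand on both sides. The comparison is a description, since assays differ in number and spread and the members stem from 2 clusters.

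The assays most alike in pattern were found by the root mean square difference of levels over the 6 samples, each assay centred on its own mean. Nearest to miR-23a were let-7e (0.205), miR-7a (0.388) and miR-203 (0.577), beside a median of 1.38 over all assays. Nearest to miR-24, after miR-199a-3p at 0, were miR-320 (0.399) and miR-223 (0.46), the latter a miRNA of myeloid cells. Nearest to miR-27b were miR-93 (0.767), miR-181d (0.843) and let-7d (0.907), with a median of 1.60. The members were not each other's nearest assays. From miR-23a, miR-24 ranked 8th at 0.718 and miR-27b ranked 43rd at 1.29. All points share 6 samples and the U6 reference. The group difference was not removed, so the measure also holds how alike the falls are. The fall was -5.99 for let-7e beside -6.11 for miR-23a, and -2.77 for miR-93 beside -4.24 for miR-27b.

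The seed of miR-27b was also searched for in the first 9 bases of the 709 assayed sequences. Beside miR-27a it occurred in 1 assay, miR-128, a miRNA best known from neurons, where UCACAGU fills bases 1 to 7 in place of 2 to 8. The sequence is shown with that shared run in capitals.
miR-27b: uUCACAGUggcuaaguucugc
miR-128: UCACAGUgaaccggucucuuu
The seed of miR-23a occurred only in miR-23b, and that of miR-24 in no other assay. The level of miR-128 was 6.96, 6.39 and 7.18 in intact and 0.24, -2.41 and 0.70 in knockdown samples. It lay above miR-27b in each intact sample, and knockdown sample 2 was the lowest of both miRNAs. The difference was -7.33 (SE 0.85, limma adjusted p = 0.000107), and -2.85 after centring (limma adjusted p = 0.0252), where that of miR-27b did not pass. After quantile normalization that of miR-128 did not pass either (-1.997, 95% interval -4.82 to 0.82, limma adjusted p = 0.312). Whether miR-128 and miR-27b changed by different amounts was not tested.

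Among 11 miRNAs known to target Runx2, all of which had an assay, 3 were measured and 3 of 3 fell, beside 84.2% of all assays. Their median was -4.84. Besides miR-23a these were miR-30c, which went from 3.36 ± 0.64 to -0.06 ± 0.50 (SD, n = 3 each), a difference of -3.42 (SE 0.56, limma adjusted p = 0.000641), and miR-205, best known from epithelia, at -4.84 (SE 0.95, limma adjusted p = 0.00175). Centred on the measured assays, 0 of 3 passed in limma, against 40% of all assays in either direction, and miR-30c stood at 1.06. Of 14 miRNAs of myeloid cells and osteoclasts, 13 had an assay, 8 were measured and 8 of 8 fell, again beside 84.2% of all assays. Their median was -5.93. The myeloid miRNA miR-223 was at -5.50 (SE 0.53, limma adjusted p = 3.93e-05) and miR-21, which is known to promote osteoclast formation, at -5.50 (SE 1.34, limma adjusted p = 0.00517). The list ran from -8.71 for miR-148a, which is known to promote osteoclast formation, over miR-342-3p at -7.52 and miR-214 at -7.33, to -3.95 for miR-22. The changes of miR-23a, miR-24 and miR-27b lie inside that range. Centred on the measured assays, 3 of the 8 passed. Of all assays 40% passed in that setting, 19 lower and 19 higher, so 40% overstates the background for lower calls alone. All 3 that passed in the list were lower (miR-148a, miR-342-3p and miR-214, limma adjusted p = 0.005, 0.00494 and 0.00672). The median of the 8 was -1.45. Whether the list held a larger share of lower calls than all assays was not tested. Whether the changes of the listed miRNAs differ from those of the members was not tested.

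The sort markers OSCAR and CTR are proteins that a miRNA array does not measure. Markers of other cell types had values in both groups, and the sum of each list was lower in every knockdown sample than in any intact one. Of all single assays, 82.1% likewise had knockdown below intact without overlap. Each marker is also among the assays whose linear knockdown mean is fixed at 1, so the mean of each knockdown sum is fixed too. Single markers did not all fall: the erythroid miR-486 was at -0.58 ± 0.58 in the intact group and -0.09 ± 0.62 after knockdown (SD, n = 3 each), which is 0.49 higher (limma adjusted p = 0.452), while 2 of 3 erythroid markers fell. After centring, miR-486 (4.97, limma adjusted p = 0.0012) and the erythroid miR-451 (2.34, limma adjusted p = 0.0164) were higher. Relative to U6, miR-451 was lower, at -2.14. The erythroid miR-144 did not pass after centring (-0.49, limma adjusted p = 0.809). Of all assays 40% passed after centring, in either direction, while none of the 3 members did. Summed on the linear scale and given as log2, the 4 stromal markers lay at 7.80 to 8.75 in intact and 1.83 to 2.204 in knockdown samples, and the 3 epithelial ones at 10.14 to 10.78 and 0.83 to 1.93. The 3 erythroid markers lay at 3.90 to 4.10 and 0.53 to 2.33, the 2 lymphoid ones at 4.57 to 4.75 and 0.45 to 1.45, and the endothelial miR-126-3p at 3.18 to 5.45 and -0.89 to 0.41. Each marker listed had a value in all samples, so the lists do not show how many markers of a cell type were Null. In the cluster of the epithelial miR-200a 1 of 3 assays was measured, and in that of miR-200c 1 of 2. In the clusters looked at that hold stromal or erythroid markers, 2 of 2 were measured in each. The epithelial list also leaves out the measured miR-205, whose change was -4.84. The stromal sum includes miR-199a-3p, whose values miR-24 repeats. The part of these cells in the levels of miR-23a, miR-24 and miR-27b was not tested. In such bulk samples fewer cells of a type and less RNA per cell cannot be told apart.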

How the data were processed

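miRNAs were measured by SYBR Green PCR of 40 cycles after reverse transcription of Trizol RNA, per the labels' protocols. The authors deposited threshold cycles (Ct) for 717 wells on 2 plates, log2-scale delta Ct relative to U6 for 709 assays, and a ratio table of folds, intact over knockdown. Ct minus delta Ct was checked to be 1 constant per sample and plate. The IDs of 48 wells, turned into numbers, were restored. Of the 709 assays, 95 had values in all 6 samples and 614 in 0.

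Minus delta Ct was fitted on all 95 assays with limma 3.58.1 in R 4.3.3 (lmFit, eBayes, no covariate, two-sided, Ct under 35 in at least 3 samples, Benjamini-Hochberg, threshold 0.05). The step was tested on simulated data. Alternatives were other references, quantile normalization, other filters, a trend, a replicate block and leaving out samples. Pairs of members were compared with exact permutation tests in scipy 1.17.1. Members and lists were chosen with earlier results of these data known. Named are the members, their families' assays, repeats, the 3 most alike assays, seed matches and list members. miR-338 was read as its 3p arm. A PCR array has no read depth, and the 3 samples per group limit the precision.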

Additional observations from a re-analysis of the deposited data

How the results depend on the processing

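For each of the 3 falls, 14 alternatives kept the direction and the call and 2 did not. Centring on the measured assays gave -1.63 for miR-23a, -0.47 for miR-24 and, reversed, 0.25 for miR-27b, and quantile normalization gave -1.31, -0.39 and -0.011. None of these passed in limma. Over all assays, 80 were lower and 0 higher in limma (0 higher at an unadjusted p under 0.05), against 19 lower and 19 higher when centred and 4 lower and 8 higher after quantile normalization, which by construction remove the common shift. With the intact levels tested against 0, an alternative chosen after seeing the data, 84 were lower and 1 higher. Leaving out 1 sample at a time gave -6.61 to -5.84 for miR-23a, -5.14 to -4.83 for miR-24, -5.19 to -3.68 for miR-27b, and 75 to 81 lower assays. The change of miR-23a minus that of miR-24 ran from -1.47 to -0.99, and minus that of miR-27b from -2.44 to -1.08. That of miR-24 minus miR-27b ran from -1.42 to 0.36, the reversed value being that without intact replicate 2. With a replicate block, 82 assays were lower and the 3 falls passed. The deviations of same-numbered samples correlated at 0.025, 0.101 and 0.0809, so the numbers were not taken to pair the samples.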

Other observations

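Among the assays ordered by likeness to the repeated values of miR-24 and miR-199a-3p, miR-214, the partner of miR-199a-3p in its cluster, ranked 54th (root mean square difference 1.35 log2 units over 6 samples). In the same order the measured partners of miR-24 stood apart: miR-23a ranked 17th, at 0.718, and miR-27b ranked 51st, at 1.26. Unequal falls enter these distances: -7.33 for miR-214, -6.11 for miR-23a and -4.24 for miR-27b, beside -4.95 for miR-24. These comparisons were chosen after the values were seen, and they do not decide which assay the values belong to. miR-214 had an intact level of 7.26 ± 0.75 and a knockdown level of -0.08 ± 0.58 (SD, n = 3 each).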
